A study of Mus musculus with 16 samples.

Results

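Lyve1, Alx4, Tfap2b, Tbx18, Slc22a6, Slc6a20a, Ptgds, Zic1, Aox3 and Stra6 are 10 genes known from the leptomeninges, the fibroblasts around vessels and the other border tissues of the brain. They were chosen by name from the 263 genes listed for the motor cortex beside the lesion, because their levels there were lower in mice that recovered from stroke than in mice that did not. That difference is therefore given here as a description, with no test of it. The libraries came from the ipsilesional primary motor cortex of 8 C57Bl6 mice, all of which had a stroke and were scored on a horizontal rotating beam. Of these, 3 had recovered spontaneously (animals 6, 23 and 28) and 5 had not recovered (animals 17, 19, 20, 21 and 29), with 1 library per animal. Animals are named here by the titles of the ipsilesional libraries. The sample codes of animals 6 and 23 are the other way round in the contralesional labels, so which of these recovered mice is which is in doubt. The labels used here give no age, sex, stroke model or time after stroke, and there was no group without a stroke. None of the 10 genes is among the 417 genes listed for the contralesional cortex, so the hemispheres were not compared for them.

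The leptomeninges are the thin membranes on the brain surface. Their fibroblasts, and related fibroblasts around larger vessels, make extracellular matrix, carry transporters for organic anions and amino acids, produce prostaglandin D synthase and handle retinoids. Macrophages and lymphatic vessels of the same borders carry the hyaluronan receptor LYVE1. In such tissue the identity of the fibroblasts is set up by transcription factors shared with cranial mesenchyme and neural crest, among them members of the ZIC, T-box, ALX and AP-2 families. The cell type behind each gene could not be checked from many other markers, because the table is the authors' selection of genes. Of 32 leptomeningeal and perivascular fibroblast markers, 3 were listed, and all 3 are among the 10 genes (Slc22a6, Slc6a20a and Ptgds). Of 12 border macrophage markers and 6 lymphatic markers only Lyve1 was listed, and of 12 mural cell markers only Tbx18. No marker on the fixed lists for the arachnoid barrier, endothelium, choroid plexus, ependyma, oligodendrocytes or astrocytes was listed, and those genes were not analysed here.

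Promoter sequences of Slc6a20a, Ptgds and Zic1 are shown because these genes varied together across the libraries and because each holds a match to the motif of a transcription factor family represented among the 10 genes. RefSeq promoters (GRCm38.p6) were matched for 8 of the 10 genes, in 11 windows. Each sequence is the 250 bases before the start annotated by RefSeq, 5′ to 3′ on the strand of the gene, in lower case, and capitals mark the match. These starts differ from the GENCODE gene positions given below. The Ptgds window lies wholly inside the GENCODE gene, which reaches to 25470046. The Slc6a20a and Zic1 windows overlap theirs, which reach to 123678885 and 91365810, and most of the Slc6a20a match lies inside.
Slc6a20a, chr9:123678833-123679082, minus strand: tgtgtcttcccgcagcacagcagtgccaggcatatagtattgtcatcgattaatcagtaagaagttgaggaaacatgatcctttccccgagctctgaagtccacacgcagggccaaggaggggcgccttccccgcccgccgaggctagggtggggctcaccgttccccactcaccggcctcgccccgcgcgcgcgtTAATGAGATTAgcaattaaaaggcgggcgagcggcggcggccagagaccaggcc
Ptgds, chr2:25469750-25469999, minus strand: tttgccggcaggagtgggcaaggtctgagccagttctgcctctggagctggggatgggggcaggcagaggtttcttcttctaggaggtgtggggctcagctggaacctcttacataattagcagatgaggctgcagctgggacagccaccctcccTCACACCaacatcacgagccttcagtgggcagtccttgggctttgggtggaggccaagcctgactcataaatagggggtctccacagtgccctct
Zic1, chr9:91365769-91366018, minus strand: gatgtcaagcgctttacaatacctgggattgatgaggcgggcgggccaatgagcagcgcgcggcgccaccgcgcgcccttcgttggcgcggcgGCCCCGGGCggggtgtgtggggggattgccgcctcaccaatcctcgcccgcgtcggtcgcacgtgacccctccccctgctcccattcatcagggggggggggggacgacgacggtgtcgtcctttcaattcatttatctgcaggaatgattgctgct
The Slc6a20a window holds TAATGAGATTA at -54 to -44 from the start, a match to the paired homeodomain motif TAATNNNATTA of the ALX family, which is present in 0.463% of all 32851 promoter windows of this length. In the Ptgds window TCACACC at -95 to -89 is the reverse complement of the T-box motif GGTGTGA, present in 3.33% of all windows. For Zic1, GCCCCGGGC at -157 to -149 matches the AP-2 motif GCCNNNGGC, present in 13.7% of all windows. Other matches were an AP-2 motif in the Aox3 window and the ZIC motif CCTGCTG, on the opposite strand, in 1 of 4 Stra6 windows (8.44% of all windows). The windows of Tfap2b, Tbx18 and Slc22a6 held none of the 4 motifs, each searched on both strands. A match describes letters in the promoter and does not show that a factor binds there.

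All 10 genes had a lower mean in recovered than in non-recovered mice, with a median difference of -0.63 on the log2 CPM scale (counts per 1000000 reads, with a small prior count). Over all 263 listed genes, of which 132 (50.2%) were lower, the median difference was -0.13. The 10 genes were chosen as lower, so the 132 lower genes, these 10 included, are the closer comparison, with a median of -0.28. The median absolute difference of all listed genes was 0.26. The 10 differences ran from -1.06 for Aox3 to -0.51 for Zic1, and Aox3 was the most negative of the whole table. They were not uniform among the animals. The recovered and non-recovered values did not overlap for 1 of the 10 genes, Lyve1, and 21.3% of all listed genes were lower in recovered mice without overlap. Of all 263 listed genes, limma gave 1.14% an adjusted p under 0.05 and 74.5% an unadjusted p under 0.05, in a table that is itself a selection of genes; no p is given for the 10 genes, which were chosen on this difference. In bulk cortex, fewer cells of a type and less RNA per cell cannot be told apart.

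**Figure D1:**
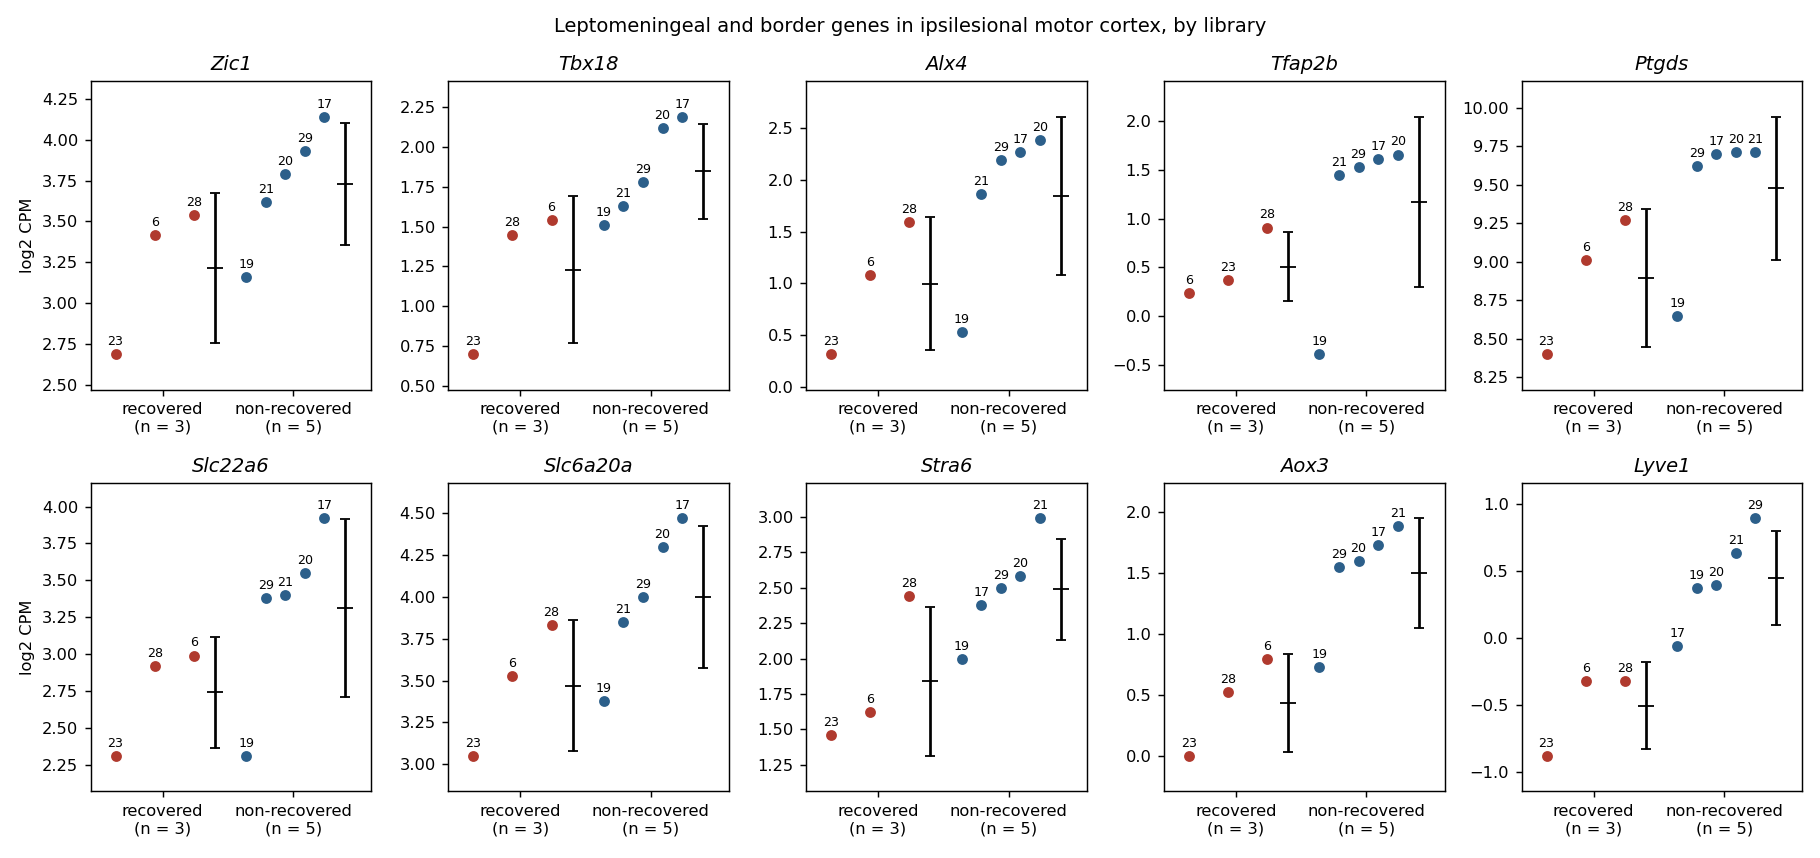
Log2 CPM of each gene (one panel per gene, each with its own axis) in 3 recovered (red) and 5 non-recovered (blue) ipsilesional libraries, with the animal number above each point and the mean ± SD in black. Animal 23 is the lowest recovered library for 9 of 10 genes and animal 19 the lowest non-recovered library for 9 of 10.

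Zic1, Tbx18, Alx4 and Tfap2b encode transcription factors. Zic1, a zinc finger factor of the dorsal neural tube and the developing meninges (ENSMUSG00000032368.14, mm10 chromosome 9, 91358058 to 91365810, minus strand), had 3.42, 2.69 and 3.54 log2 CPM in recovered animals 6, 23 and 28. In non-recovered animals 17, 19, 20, 21 and 29 it had 4.14, 3.16, 3.79, 3.62 and 3.93 log2 CPM. The non-recovered values lay above all recovered ones except in animal 19, which lay between recovered animals 23 and 6. The mean was 3.22 ± 0.46 (SD, n = 3) in recovered and 3.73 ± 0.37 (SD, n = 5) in non-recovered mice, a difference of -0.51 ± 0.26 (SE). Its exons share 60 bases with those of Zic4 on the opposite strand.

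Tbx18, a T-box factor of mural cells and perivascular fibroblasts (ENSMUSG00000032419.8, chromosome 9, 87702800 to 87731260, minus strand), had 1.54, 0.70 and 1.45 log2 CPM in recovered animals 6, 23 and 28. Non-recovered animals 17, 19, 20, 21 and 29 had 2.19, 1.51, 2.12, 1.63 and 1.78 log2 CPM. Here the groups met at their edges, with animal 19 just under animal 6, and only animal 23 stood clearly apart. The difference was -0.62 ± 0.23 (SE), from 1.85 ± 0.30 (SD, n = 5) to 1.23 ± 0.46 (SD, n = 3). Of its 4718 exonic bases, 970 overlap a transcript annotated on the opposite strand, and whether the authors counted by strand is not given in the sources used here.

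Alx4, a paired-type homeodomain factor of cranial mesenchyme (ENSMUSG00000040310.12, chromosome 2, 93642384 to 93681339, plus strand), had 1.08, 0.32 and 1.59 log2 CPM in recovered animals 6, 23 and 28. The non-recovered values for animals 17, 19, 20, 21 and 29 were 2.27, 0.53, 2.38, 1.86 and 2.19. All of these but animal 19 lay above every recovered library, and animal 19 lay near the lowest one. Tfap2b, an AP-2 factor of neural crest (ENSMUSG00000025927.13, chromosome 1, 19208914 to 19238576, plus strand), had 0.24, 0.37 and 0.91 log2 CPM in recovered animals 6, 23 and 28. In non-recovered animals 17, 20, 21 and 29 it kept to a narrow range of 1.45 to 1.66, but in animal 19 it was at -0.39, the lowest of all 8 libraries. Read numbers were small, at 26 to 125 reads per library for Alx4 and 13 to 78 for Tfap2b. The differences were -0.85 ± 0.46 (SE) for Alx4 and -0.67 ± 0.47 for Tfap2b, with SDs of 0.76 and 0.88 among the 5 non-recovered libraries.

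Ptgds, Slc22a6 and Slc6a20a serve prostaglandin synthesis and transport. Ptgds, which encodes the lipocalin-type prostaglandin D synthase (ENSMUSG00000015090.13, chromosome 2, 25466709 to 25470046, minus strand), had 9.01, 8.4 and 9.27 log2 CPM in recovered animals 6, 23 and 28. It had 9.70, 8.65, 9.71, 9.71 and 9.62 in non-recovered animals 17, 19, 20, 21 and 29. The non-recovered libraries other than animal 19 were thus close together, and animal 19 lay among the recovered ones. As a level, this was 740 ± 191 CPM (SD, n = 5) in non-recovered and 491 ± 142 CPM (SD, n = 3) in recovered mice, a log2 difference of -0.58 ± 0.29 (SE). With 7669 to 21920 reads per library, counting noise is a small part of that spread. Ptgds is also made by choroid plexus and oligodendrocytes. No gene of the fixed marker list used for either was listed, and markers outside those lists were not looked up.

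Slc22a6, an organic anion transporter gene (ENSMUSG00000024650.5, chromosome 19, 8618039 to 8628299, plus strand), had 2.99, 2.31 and 2.92 log2 CPM in recovered animals 6, 23 and 28. In non-recovered animals 17, 19, 20, 21 and 29 it had 3.92, 2.31, 3.55, 3.40 and 3.38. Animal 19 matched animal 23 to the second decimal, at the bottom of both groups. Slc6a20a, a transporter of proline and related imino acids (ENSMUSG00000036814.13, chromosome 9, 123634770 to 123678885, minus strand), had 3.53, 3.05 and 3.83 log2 CPM in recovered and 4.47, 3.38, 4.3, 3.85 and 4.0 in non-recovered libraries, in the same order of animals. The upper recovered library, animal 28, came close to the non-recovered animal 21. The differences were -0.57 ± 0.34 (SE) and -0.53 ± 0.26. Slc6a20a has a closely similar neighbour, Slc6a20b, and 607 exonic bases are shared with genes on the opposite strand, so its reads carry some uncertainty of origin.

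Stra6 and Aox3 bear on vitamin A. Stra6, the membrane receptor through which cells take up retinol (ENSMUSG00000032327.14, chromosome 9, 58063788 to 58153996, plus strand), had 1.62, 1.46 and 2.44 log2 CPM in recovered animals 6, 23 and 28. Non-recovered animals 17, 19, 20, 21 and 29 had 2.38, 2.0, 2.58, 2.99 and 2.5. Recovered animal 28 lay inside the non-recovered range, unlike the other two. Aox3, an aldehyde oxidase, an enzyme family that can oxidise retinaldehyde (ENSMUSG00000064294.12, chromosome 1, 58113130 to 58200698, plus strand), had 0.79, 0.00 and 0.52 log2 CPM in recovered libraries. It had 1.73, 0.73, 1.6, 1.88 and 1.55 in the non-recovered ones, where animal 19 alone overlapped the recovered range. The differences were -0.65 ± 0.27 (SE) for Stra6 and -1.06 ± 0.28 for Aox3. Taken back from the log2 scale, the Aox3 difference is a ratio of 0.48, recovered to non-recovered, of geometric means with the prior count. Arithmetic mean levels of Aox3 were 1.3 CPM in recovered and 2.83 CPM in non-recovered mice. Aox3 belongs to a cluster of related genes and had only 22 to 88 reads per library.

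Lyve1, the hyaluronan receptor gene of border macrophages and lymphatic endothelium (ENSMUSG00000030787.4, chromosome 7, 110850607 to 110863239, minus strand), had -0.32, -0.88 and -0.32 log2 CPM in recovered animals 6, 23 and 28. Non-recovered animals 17, 19, 20, 21 and 29 had -0.06, 0.37, 0.39, 0.63 and 0.89. This was the one gene without overlap, and the one for which animal 19 was not the lowest of its group, a place taken by animal 17. The difference was -0.95 ± 0.22 (SE), with 0.631 ± 0.150 CPM (SD, n = 3) in recovered and 1.31 ± 0.332 CPM (SD, n = 5) in non-recovered mice. It rested on 11 to 46 reads per library, and on the log2(CPM + 1) scale it was -0.49.

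Per kilobase of exon, Ptgds stood far above the rest, at 392 ± 126 RPKM (SD, n = 8 libraries of both groups; reads per kilobase of exon and 1000000 reads). Slc6a20a at 3.55 ± 1.14 RPKM, Slc22a6 at 2.27 ± 0.874 and Zic1 at 2.11 ± 0.622 followed. Stra6 (0.844 ± 0.290 RPKM), Tbx18 (0.659 ± 0.199), Alx4 (0.450 ± 0.220), Lyve1 (0.361 ± 0.150), Aox3 (0.321 ± 0.142) and Tfap2b (0.321 ± 0.151) were all under 1 RPKM on average. Only Ptgds was separated from its neighbour in this order over the range of all libraries. Slc6a20a was nevertheless above Slc22a6, Zic1 above Stra6 and Tbx18 above Alx4 in 8 of 8 libraries. Slc22a6 was above Zic1 in 5 of 8, and Aox3 above Tfap2b in 3 of 8. In position, 4 of the 10 genes lie on chromosome 9 (Stra6, Tbx18, Zic1 and Slc6a20a), as do 24 of 262 listed genes with a matched symbol (9.2%).

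Across libraries the genes other than Lyve1 varied together, within the groups as well as between them. As deviations from each gene's mean over the 8 libraries, averaged over the 10 genes, recovered animals 6, 23 and 28 lay at -0.33, -0.88 and -0.10. Non-recovered animals 17, 20, 21 and 29 lay between 0.38 and 0.52, whereas animal 19 lay at -0.49, lower than recovered animals 6 and 28. Animal 23 was the lowest recovered library for 9 of 10 genes (28.5% of all listed genes) and animal 19 the lowest non-recovered one for 9 of 10 (25.9%); both held for 8 of 10 genes and for 13.7% of all listed genes. In animal 23 all 10 genes were below their mean, and in animal 19 it was 9 of 10, with Lyve1 the exception. Animals 20, 21 and 29 had 0 of 10 genes below the mean. These deviations hold the group difference that the genes were chosen on, so these counts follow in part from that choice. No share over all listed genes is given for them. Summed over the 9 genes other than Ptgds, the level was 27.4 CPM in animal 23 and 35.6 CPM in animal 19, against 59.2 to 76.2 CPM in the other non-recovered animals. The totals behind these values, 24 M reads for animal 23 and 19.1 M for animal 19, lie in and at the bottom of the range of 19.1 to 26.3 M, and their part in the pattern was not tested.

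**Figure D2:**
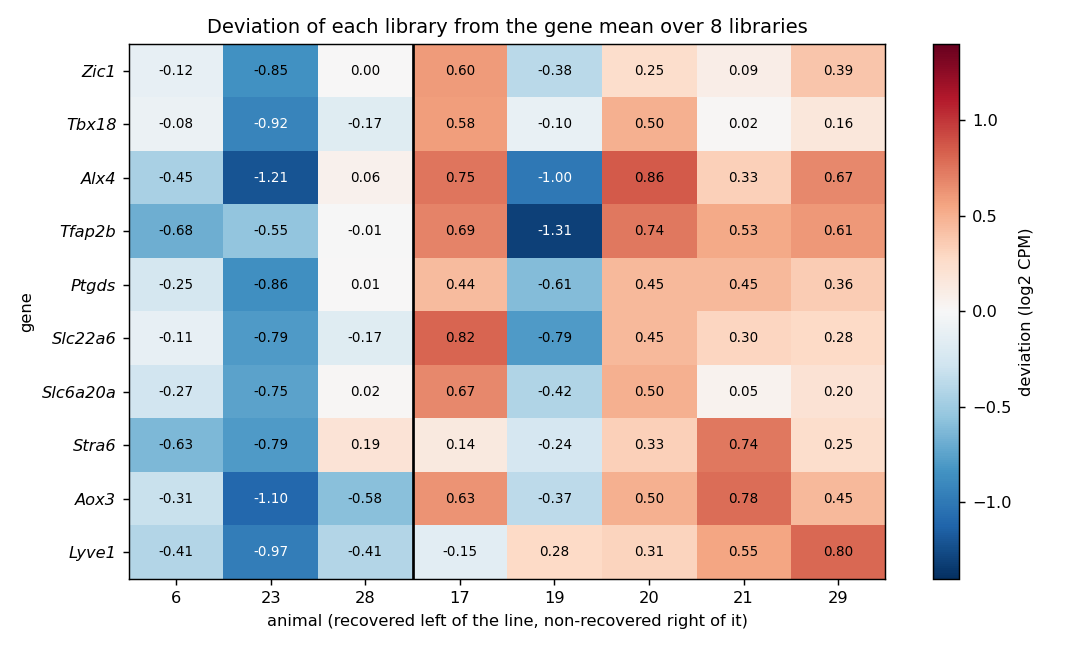
Deviation of log2 CPM from each gene's mean over the 8 ipsilesional libraries, with genes in rows and animals in columns (blue below, red above the mean). The column of non-recovered animal 19 is blue for 9 of 10 genes and that of recovered animal 23 for all 10. The deviations hold the group difference that the genes were chosen on.

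To describe covariation free of the group difference, each value was taken as its deviation from the mean of its own group. The median correlation over the 45 pairs of genes was r = 0.78 (Pearson, 8 libraries), and 60% of pairs were over 0.7. Over all 34453 pairs of listed genes the median was 0.02 and 5.91% of pairs were over 0.7. Ptgds, Alx4, Slc22a6, Slc6a20a and Zic1 formed the tightest set, with r from 0.88 to 0.97 in every pair. Against the mean of the other 9 genes, r was 0.99 for Ptgds, 0.98 for Alx4, 0.93 for Slc22a6, 0.91 for Zic1, 0.90 for Slc6a20a, 0.88 for Aox3 and 0.84 for Tfap2b. It was lower for Tbx18 (0.74) and Stra6 (0.68). Lyve1, at 0.23, was the outsider, with r between 0.01 and 0.47 to each of the others. It also had the fewest reads, 11 to 46 per library. How far counting noise lowered its r was not tested. Every pair shares its libraries, and with them depth and tissue piece, so these coefficients are descriptions, given without p-values.

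**Figure D3:**
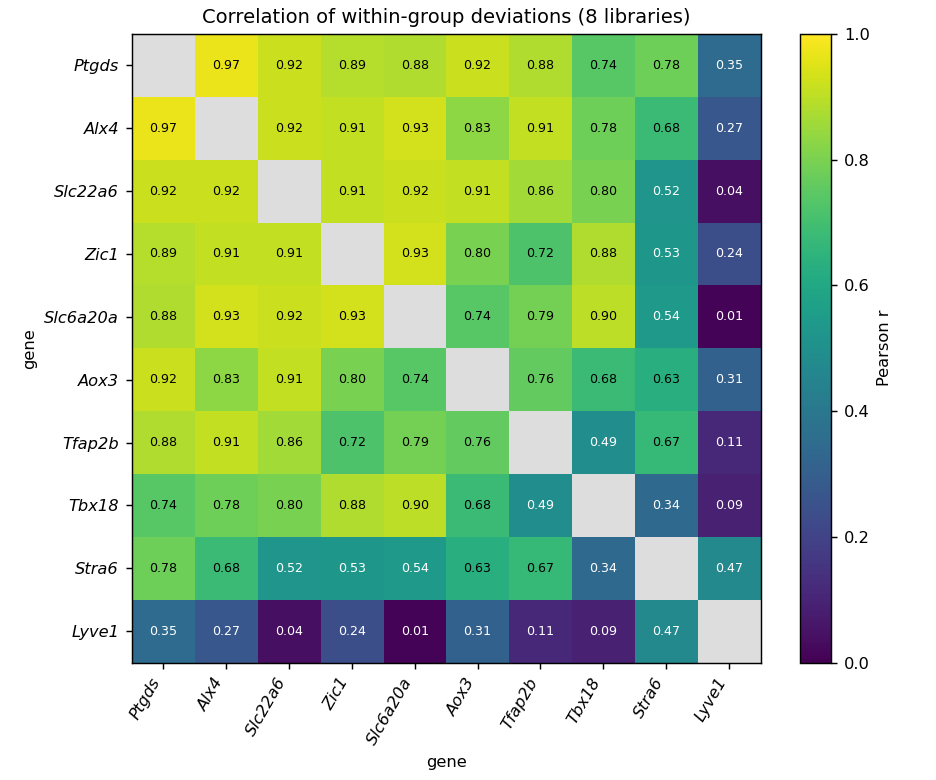
Pearson correlation between pairs of genes of their within-group deviations of log2 CPM over 8 ipsilesional libraries (grey, gene with itself). Ptgds, Alx4, Slc22a6, Zic1 and Slc6a20a correlate at 0.88 to 0.97, and the Lyve1 row does not exceed 0.47.

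That covariation rested on 2 libraries. Animal 19 held 49.7% and animal 23 held 13.9% of the within-group sum of squares of the 10 genes, against 12.5% and 9.25% of that of all listed genes. A single axis took up 81.3% of the sum of squares of the 10 genes. With animal 19 left out the median pairwise r was 0.62, and with animal 23 left out it was 0.73. Without both (6 libraries) it was 0.09, or 0.22 for the 9 genes other than Lyve1, against 0.03 for all listed pairs. Among Ptgds, Alx4, Slc22a6, Slc6a20a and Zic1, picked as the tightest set in all 8 libraries, r then ran from 0.05 to 0.81. Within-group spread was also wide: the median SD of the 10 genes was 0.43 (range 0.34 to 0.74) and that of all listed genes 0.13. The listed genes were selected on these libraries, and several of the 10 had few reads. The part of either in this contrast was not tested.

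Leaving out either of the same 2 animals moved the group difference, in opposite directions. Leaving out recovered animal 28 moved it too, to a median of -0.82, with Stra6 at -0.95. Without non-recovered animal 19 the median difference was -0.81, and the groups did not overlap for 9 of 10 genes (all but Stra6, for which animal 28 lay above animal 17). The share of all listed genes lower without overlap was then 31.9%. Tfap2b moved most, from -0.67 to -1.06 ± 0.16 (SE). Without recovered animal 23 the median difference was -0.41, and the differences were less negative for all 10 genes, at -0.25 ± 0.24 for Zic1, -0.34 ± 0.30 for Ptgds, -0.35 ± 0.20 for Tbx18, -0.35 ± 0.38 for Slc22a6, -0.32 ± 0.28 for Slc6a20a and -0.52 ± 0.49 for Alx4. Aox3 was then at -0.84 ± 0.29, Lyve1 at -0.76 ± 0.23, Tfap2b at -0.60 ± 0.57 and Stra6 at -0.46 ± 0.29. Without both animals the median was -0.59, with Ptgds at -0.55 ± 0.09, Aox3 at -1.04 ± 0.13 and Lyve1 at -0.78 ± 0.25. All 10 differences remained negative under each of these settings, which reuse the libraries that the genes were chosen on.

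**Figure D4:**
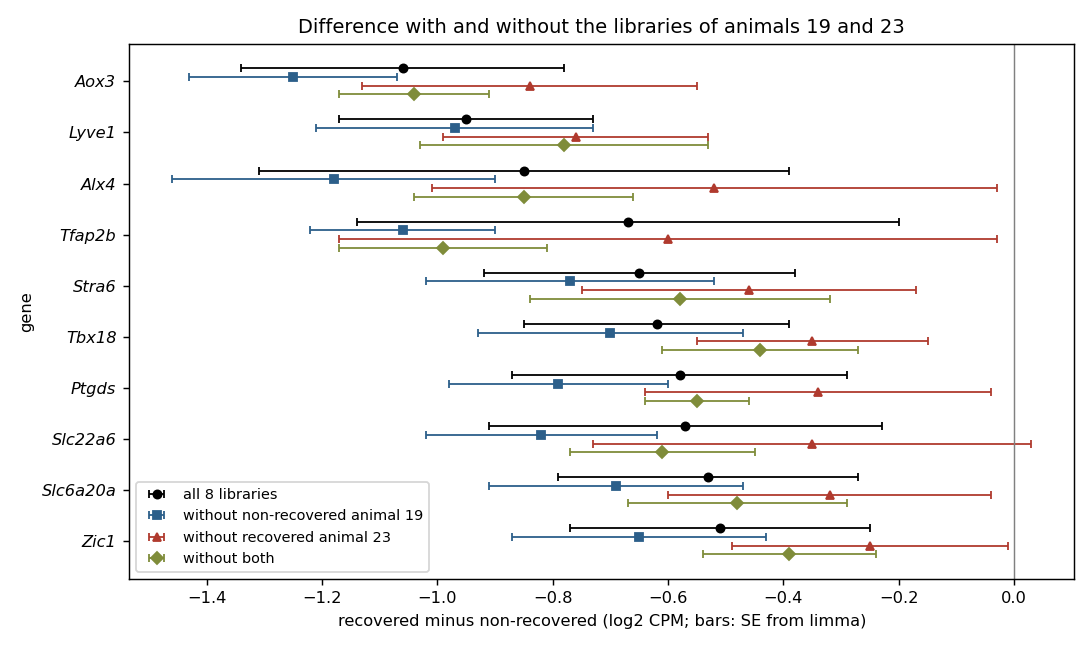
Difference in log2 CPM, recovered minus non-recovered, for each gene in all 8 libraries (black), without non-recovered animal 19 (blue), without recovered animal 23 (red) and without both (green), with SE from limma as bars. All points lie below 0, in libraries that the genes were chosen on. Those without animal 23 are the least negative for each of the 10 genes.

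Some other listed genes had a like within-group pattern. Those most like the mean of the 10 genes over the 8 libraries were Ddr2, a collagen receptor gene (r = 0.93), the activity-dependent transcription factor gene Npas4 (0.92), the sulfotransferase gene Sult1a1 (0.91), Bmp4 (0.89) and Nbl1, a secreted BMP antagonist gene (0.87). All 5 had a lower mean in recovered mice, from -0.97 ± 0.44 (SE) for Npas4 to -0.31 ± 0.14 for Nbl1. Without animals 19 and 23 the likeness was r = 0.72 for Npas4, while for Ddr2, Sult1a1, Nbl1 and Bmp4 it was 0.37, 0.25, 0.22 and -0.20. The most opposite were Slc35g2 (r = -0.80) and the thyroid hormone receptor gene Thra (-0.79). For each gene, the nearest partner was picked as the highest r among all other listed genes, so a high r follows in part from the choice. The r without animals 19 and 23 reuses the remaining libraries of the same 8 and is no separate check. Taken gene by gene, the nearest partner of Lyve1 was Plin4, a lipid droplet gene (r = 0.95, and 0.97 without animals 19 and 23). Plin4 differed by -0.72 ± 0.36 and, as for Lyve1, was low in non-recovered animal 17 (0.65 log2 CPM) and not in animal 19 (1.73). Other nearest partners with r of 0.88 or above also without animals 19 and 23 were Itgbl1 for Zic1 (0.97, and 0.99 without them), Gxylt2 for Tbx18 (0.96 and 0.88) and Adam9 for Stra6 (0.90 and 0.91). Lower without them was the r of Ddr2 with Slc22a6 (0.97 and 0.78) and with Alx4 (0.94 and 0.53), Amotl2 with Aox3 (0.97 and 0.76), Npas4 with Ptgds (0.91 and 0.69) and Ptpn14 with Tfap2b (0.91 and 0.40). Slc6a20a was most like Gad1 within groups (0.98 with and without those animals), although Gad1, the gene of a GABA-synthesising enzyme, had the opposite group difference (0.22 ± 0.08).

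Of 14 markers of microglia and infiltrating myeloid cells on a list, 4 were listed (Itgam, C3, Gpnmb and Casp1). Casp1 alone of them had an unadjusted limma p under 0.05 (0.0169), and 74.5% of all listed genes had one. All 4 markers had a higher mean in recovered mice, from 0.34 ± 1.57 (SE) for C3 to 1.32 ± 1.16 for Gpnmb. Of these markers, 0 passed an adjusted limma p of 0.05. Their summed level was 10.8 to 150 CPM in recovered and 9.15 to 22.3 CPM in non-recovered libraries, where the 150 CPM belonged to recovered animal 6 and the other recovered libraries had 12 and 10.8 CPM. In that animal the 10 genes averaged -0.33, between the other recovered libraries, and the median difference without it was -0.67. Animals 19 and 23, in which the 10 genes were lowest, had 9.15 and 12 CPM of these markers. A relation between the markers and the 10 genes was not tested. On the prostaglandin list, Ptgds and the prostaglandin E receptor gene Ptger4 were listed of 12 genes. Ptger4 had a difference in the other direction, of 0.58 ± 0.25 (SE), and an adjusted limma p of 0.0668. From the list of 22 meningeal and neural crest transcription factors, 4 were listed, and of 8 organic anion and amino acid transporters, 2, all of them already described.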

How the data were processed

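Per the labels' protocols, ipsilesional motor cortex RNA (RNA integrity numbers 7 to 9) was made into stranded mRNA libraries. STAR 2.5.1b, Trimmomatic 0.38, edgeR, bcl2fastq and mm10 appear, without roles, in the submitters' processing notes. Counter, annotation and gene selection were not given in the sources used here. The authors deposited log2 CPM per library for selected genes, 263 of them ipsilesional. These log2 values solved to whole reads plus a prior count of 2, in 100% of values within 0.01, which gave reads and totals of 19.1 to 26.3 M. The totals may include a normalization factor.

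The groups were taken from the titles (3 recovered, 5 non-recovered; separate animals). Limma 3.58.1 in R 4.3.3 was fitted to the deposited log2 CPM of all 263 genes, with Benjamini-Hochberg adjustment over them and no filter. Because the table is already selected on these libraries, its adjusted p-values can be too small. Limma was tested on simulated data. The correlation summary was too. RPKM used exonic lengths from GENCODE M21 (GRCm38, the assembly of mm10). Promoters came from RefSeq, and coordinates are 1-based. The 10 genes, the marker and pathway lists and the settings were chosen with earlier results of these data known. Named genes were the 10, every listed gene of the fixed lists, the 5 most and 2 least like the mean of the 10, and the nearest partner of each. A listed gene of these lists is not reported here. Alternatives were log2(CPM + 1), log2(CPM + 0.1), quantile normalization, removal of each library's table median, voom, a filter, rank correlation and leaving out libraries. The setting without animals 19 and 23 together was added after the values were seen.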

Additional observations from a re-analysis of the deposited data

Results flagged for a closer look

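Non-recovered animal 19 lay far from the other 4 non-recovered libraries. Its gap to the nearest of them, as a share of the whole range of the group, was 0.92 for Ptgds, 0.90 for Tfap2b, 0.72 for Alx4 and 0.72 for Aox3, all above Dixon's critical value of 0.71 for 5 samples. For the mean of the 10 genes it was 0.87. Chance gives such a value in about 1 in 20 groups; of all 263 listed genes, 15 (5.7%) had one at either end, against 4 of the 10 genes. The genes vary together, so these 4 are not separate observations.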

How the results depend on the processing

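All 10 genes stayed lower in recovered mice under each alternative, in 140 of 140 combinations of gene and setting. The genes were chosen as lower in these libraries and every setting reuses them, so this count is no separate check. The median difference ran from -0.82 to -0.41 with 1 library left out, and was -0.51 on log2(CPM + 1) and -0.67 with voom. The only gene whose difference moved by at least its within-group SD was Lyve1 on log2(CPM + 1). The count of genes without overlap, 1, became 2 after quantile normalization (17.1% of all listed genes) and 2 after removal of the table median (28.1%). It was 9 without animals 19 and 23 (34.2%) and 1 to 9 with 1 library left out. The 9 came without animal 19 (31.9%). The highest share with 1 library left out, 33.5%, came without animal 28, where the count was 2, and the lowest share was 24.3%. The median pairwise r of 0.78 became 0.57 with rank correlation, 0.62 after quantile normalization and 0.09 without animals 19 and 23. With 1 library left out it ran from 0.62 to 0.86. For the whole table, the count of 3 genes past an adjusted limma p of 0.05 became 1 on log2(CPM + 1), 39 after quantile normalization, 33 after removal of the table median, 1 without animals 19 and 23, 0 with voom (222 unadjusted) and 0 to 18 with 1 library left out. For these counts the cause was not tested. No paired analysis was possible because the compared groups hold different animals. The fewest reads, 11 to 46 per library, lay behind Lyve1.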
